A study of Mus musculus with 7 samples.

Results

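Interstitial cells of Cajal (ICC) are the pacemaker cells of the bowel wall, and 6 genes that mark them or keep them alive were followed here: Kit, its ligand gene Kitl, Ano1, Etv1, Thbs4 and Prkcq. They were chosen by name, with earlier results of these data known. All 6 were measured, among 19938 genes in all, through the array probe sets that the platform annotation pairs with 1 gene symbol. Gene expression was measured on 7 microarrays of bowel cells from mouse embryos at embryonic day 17.5 that all carried Wnt1-Cre and the R26R-EYFP reporter. Wnt1-Cre is a recombinase driven by a neural crest promoter, and the reporter makes a yellow fluorescent protein in every cell in which Cre has acted and in its descendants. Sorting gave 4 samples of YFP-positive cells, called enteric neural crest-derived cells (ENCDC), and 3 samples of the remaining, YFP-negative cells of the whole bowel. The study set out to find genes enriched in ENCDC.

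ICC form networks in and around the muscle layers of the gut and arise from the mesenchyme of the gut wall, not from the neural crest. The receptor tyrosine kinase Kit, activated by Kit ligand (also called stem cell factor), is required for their development and upkeep. Within them the ETS transcription factor Etv1 acts downstream of Kit, and the calcium-activated chloride channel Ano1 carries the pacemaker current. None of these genes is exclusive to ICC. Kit also marks mast cells and blood progenitors, Prkcq is a kinase of T cells, Thbs4 is a matrix protein of tendon and muscle, and Etv1 is made in many neurons.

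The YFP-positive samples were rich in markers of enteric neurons and glia, whose lists were chosen with earlier results of these data known. All 7 measured enteric neuron markers and all 6 measured glial markers were higher in YFP-positive cells (limma adjusted p under 0.05), as were 8.39% of all genes. The mean log2 level of the neuron markers was 9.39 to 10.07 on the YFP-positive and 5.30 to 5.73 on the YFP-negative arrays. Several marker lists of other cells of the bowel were higher on YFP-positive arrays 3 and 4 than on arrays 1 and 2. The mean log2 level of 10 smooth muscle markers, for example, was 7.41, 7.98, 8.54 and 8.96 on YFP-positive arrays 1 to 4, and from 9.25 to 9.70 on those of YFP-negative cells. For 11 intestinal epithelium markers it was 7.65, 7.90, 8.61 and 8.74 on YFP-positive arrays 1 to 4. On the YFP-negative arrays it was 8.36 to 8.41, so that YFP-positive arrays 3 and 4 were above all of these. The log2 fold change of each member is therefore also given without arrays 3 and 4. No source says that arrays of 1 group stem from separate embryos or litters, so the p-values measure the spread between these samples only, and 7 arrays limit the precision of every value. In sorted populations, fewer cells of a type and less RNA per cell cannot be told apart.

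The receptor, the ligand and the ETS factor are the genes on which the comparison below turns, and the 250 bases before their RefSeq gene starts are shown for that reason. They are written 5′ to 3′ on the strand of the gene, in the build GRCm38.p6. The windows are Kit at chr5:75574737-75574986, Kitl at chr10:100015571-100015820 and Etv1 at chr12:38779832-38780081, all on the plus strand. Kit and Etv1 each had 2 listed starts, of which the first is shown. Capitals mark matches on either strand to the ETS motif CCGGAAG, the TATA motif TATAAA, the E-box CACGTG or the GC box GGGCGG.
Kit: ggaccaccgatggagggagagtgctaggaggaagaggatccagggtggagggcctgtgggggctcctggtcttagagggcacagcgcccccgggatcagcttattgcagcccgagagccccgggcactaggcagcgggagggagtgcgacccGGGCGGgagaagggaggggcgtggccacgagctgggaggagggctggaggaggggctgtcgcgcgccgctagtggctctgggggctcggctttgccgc
Kitl: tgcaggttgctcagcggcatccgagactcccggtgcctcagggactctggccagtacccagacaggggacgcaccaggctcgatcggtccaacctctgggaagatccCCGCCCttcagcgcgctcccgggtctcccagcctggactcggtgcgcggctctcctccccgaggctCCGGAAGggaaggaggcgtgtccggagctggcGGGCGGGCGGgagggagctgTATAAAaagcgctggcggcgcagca
Etv1: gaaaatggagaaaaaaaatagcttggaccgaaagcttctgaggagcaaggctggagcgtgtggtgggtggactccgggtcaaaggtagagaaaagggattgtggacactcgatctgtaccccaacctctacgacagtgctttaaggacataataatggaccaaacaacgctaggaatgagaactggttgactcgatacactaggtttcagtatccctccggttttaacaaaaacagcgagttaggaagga

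The ETS motif was found in the window of Kitl, 77 bases before its start, and in that of no other member. It is in 7.05% of 27025 promoter windows of this length, counting only the first listed start of each gene. Kitl also had a TATA motif 25 bases before its start, a motif of 13.0% of windows, and 3 GC boxes, a motif of 32.9% of windows; 2 of its GC boxes overlap each other. At the starts shown, Kit had 1 GC box and Etv1 none. The second listed starts, not shown, had 1 GC box 102 bases before that of Kit and a TATA motif 114 bases before that of Etv1. The E-box, in 6.05% of windows, was in none of the members' windows. The windows of Kit and Kitl were 70.8% and 69.2% G and C, and that of Etv1 46.4%. A match describes these letters and not the binding of any factor.

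All 6 genes differed between the groups, in both directions. Kit, Kitl, Ano1, Thbs4 and Prkcq were lower and Etv1 was higher in YFP-positive cells (limma adjusted p under 0.05 for each). The shares of all genes called in the same fit were 9.11% lower and 8.39% higher, together 17.5%. None of the 6 had overlapping groups, which was also true of 26.9% of all genes. The median log2 fold change, YFP-positive minus YFP-negative, was -1.58 over the 6 members and 0.01 over all genes.

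**Figure D1:**
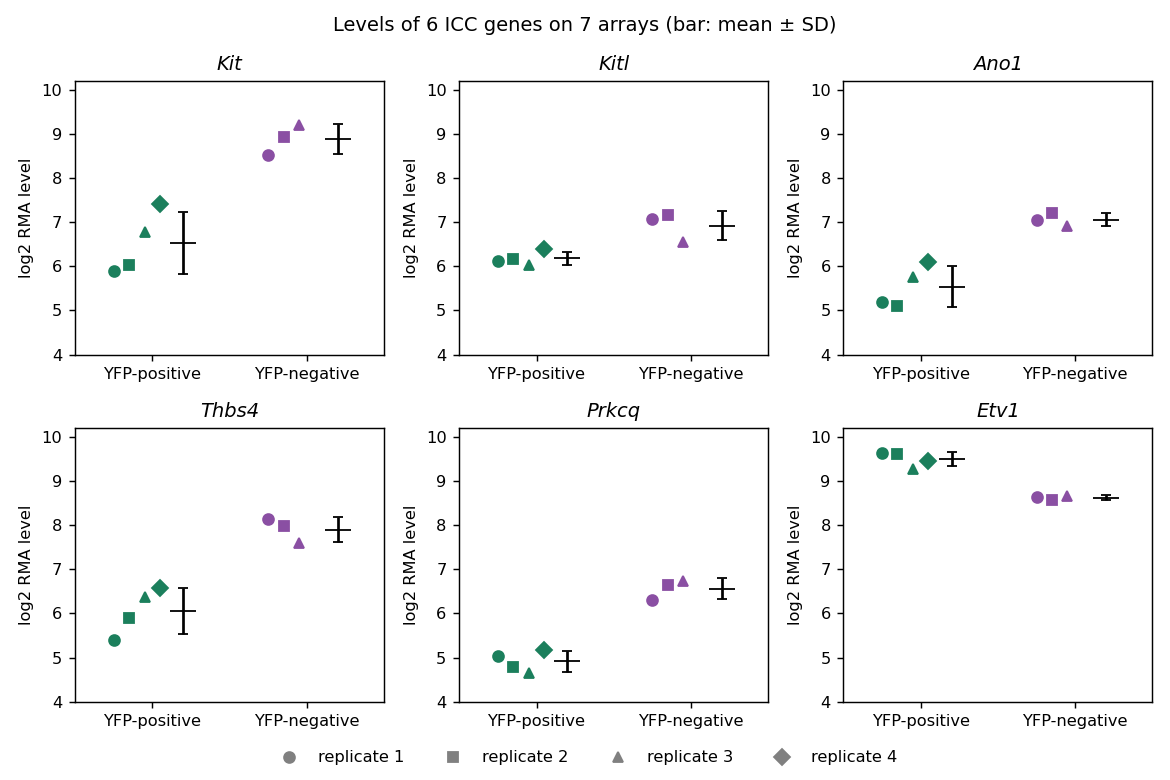
Log2 RMA level of each of the 6 genes on every array, 4 YFP-positive and 3 YFP-negative, with marker shape giving the replicate number and bars the group mean ± SD. For 5 genes the YFP-positive arrays lie below all YFP-negative ones, and for Etv1 they lie above.

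Kit, the receptor, had the largest difference of the 6. Its log2 levels were 5.89, 6.03, 6.78 and 7.42 on YFP-positive arrays 1 to 4, and 8.53, 8.93 and 9.19 on YFP-negative arrays 1 to 3. The groups were apart by 1.11 at their nearest arrays, while the YFP-positive arrays themselves spanned 1.52, with arrays 3 and 4 the highest. The level was 5.11-fold lower in YFP-positive cells, with a 95% interval of 2.73 to 9.57-fold (log2 fold change -2.35 ± 0.38 SE, limma adjusted p = 0.00582). Without YFP-positive arrays 3 and 4 the log2 fold change was -2.92.

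Kitl, which encodes the membrane-bound and soluble ligand of Kit, differed in the same direction and by less. Its log2 levels were 6.11, 6.16, 6.04 and 6.40 on the YFP-positive arrays and 7.06, 7.15 and 6.56 on the YFP-negative arrays. YFP-negative array 3 was close to the YFP-positive arrays, and the gap between the groups was 0.16. The level was 1.68-fold lower in YFP-positive cells, with a 95% interval of 1.29 to 2.18-fold (log2 fold change -0.75 ± 0.16 SE, limma adjusted p = 0.0184). This call rested on single arrays: it was lost without YFP-positive array 1, 2 or 3 (limma adjusted p = 0.0570, 0.0584 and 0.0563), without YFP-negative array 1 or 2 (0.0728 and 0.0732) and without YFP-positive arrays 3 and 4 together (0.0798), while the log2 fold change stayed between -0.93 and -0.63.

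Receptor and ligand can also be set side by side on each array. The log2 level of Kit minus that of Kitl was -0.22, -0.13, 0.74 and 1.01 on YFP-positive arrays 1 to 4 and 1.47, 1.78 and 2.63 on YFP-negative arrays 1 to 3. The size of this value has no meaning of its own, because the 2 genes have different probes. Its change between the groups can be described, but it too may depend on the probes where a level is near background. Kitl read 6.04 to 6.40 on the YFP-positive arrays, where the array medians over all genes were 5.87 to 5.92. Whether background made the difference of Kitl smaller was not tested. The change, YFP-positive minus YFP-negative, was -1.61 ± 0.47 (SE), with no overlap between the groups (two-sided exact permutation p = 0.0571, the smallest that 4 against 3 arrays can give). The design therefore cannot reach 0.05 with this test.

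Ano1, the chloride channel of the pacemaker current, was lower in YFP-positive cells, as Kit was. Its log2 levels were 5.20, 5.11, 5.77 and 6.10 on the YFP-positive arrays and 7.05, 7.22 and 6.91 on the YFP-negative arrays. The YFP-negative arrays were close together, and YFP-positive arrays 3 and 4 were again the highest of their group. The level was 2.86-fold lower in the YFP-positive group, with a 95% interval of 1.90 to 4.31-fold (log2 fold change -1.52 ± 0.25 SE, limma adjusted p = 0.00607). It was -1.91 on the log2 scale when YFP-positive arrays 3 and 4 were left out.

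Thbs4, a secreted thrombospondin of the extracellular matrix, had log2 levels of 5.39, 5.90, 6.36 and 6.58 on the YFP-positive arrays and 8.13, 7.97 and 7.60 on the YFP-negative arrays. The groups were 1.02 apart, and YFP-positive array 1 was the lowest of all. The level was 3.59-fold lower in the YFP-positive group, with a 95% interval of 2.22 to 5.78-fold (log2 fold change -1.84 ± 0.29 SE, limma adjusted p = 0.00524). Leaving out YFP-positive arrays 3 and 4 gave -2.26 on the log2 scale.

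Prkcq, which encodes protein kinase C theta, had log2 levels of 5.05, 4.78, 4.66 and 5.16 on the YFP-positive arrays and 6.30, 6.65 and 6.74 on the YFP-negative arrays. Here YFP-positive arrays 3 and 4 were not above arrays 1 and 2 as a pair. The level was 3.14-fold lower in the YFP-positive group, with a 95% interval of 2.42 to 4.07-fold (log2 fold change -1.65 ± 0.16 SE, limma adjusted p = 5.77e-04). The log2 fold change was also -1.65 when YFP-positive arrays 3 and 4 were left out. The values carry no detection call, so a level as low as that of Prkcq in YFP-positive cells may be largely background, which would understate its fold change. The same limit may hold for Ano1 on YFP-positive arrays 1 and 2 (5.20 and 5.11) and for Thbs4 on array 1 (5.39).

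Etv1 was the exception in direction. Its log2 levels were 9.63, 9.61, 9.28 and 9.46 on the YFP-positive arrays and 8.64, 8.56 and 8.67 on the YFP-negative arrays. Both groups were tight, and YFP-positive arrays 3 and 4 were the lowest of their group. The level was 1.83-fold higher in YFP-positive cells, with a 95% interval of 1.57 to 2.14-fold (log2 fold change 0.87 ± 0.10 SE, limma adjusted p = 0.00102). Leaving out YFP-positive arrays 3 and 4 gave 0.996 on the log2 scale. A second probe set of Etv1, with a lower mean, read 8.92, 8.73, 8.39 and 8.56 on the YFP-positive and 7.65, 8.15 and 8.24 on the YFP-negative arrays. It also had no overlap, but its log2 fold change of 0.63 ± 0.18 (SE) did not pass when every probe set was tested (limma adjusted p = 0.0550). Whether either probe set also reads transcripts of another locus was not tested. The other 5 members had 1 probe set each.

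**Figure D2:**
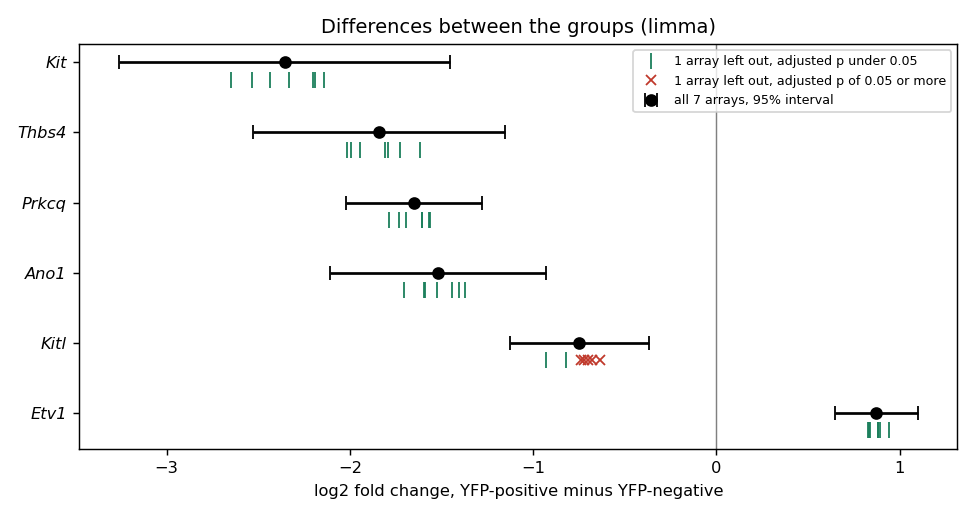
Log2 fold change of the 6 genes, YFP-positive minus YFP-negative, with 95% intervals from all 7 arrays, and below each the values with 1 array left out. Kit, Thbs4, Prkcq, Ano1 and Etv1 kept an adjusted p under 0.05 without any 1 array, and Kitl did not in 5 of the 7 cases.

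In order of the size of the difference, the lower genes were Kit, Thbs4, Prkcq, Ano1 and Kitl. The 95% intervals of Kit, Thbs4, Prkcq and Ano1 overlapped one another, so that their order is not settled, while that of Kitl, -1.12 to -0.37, ended above those of Kit (-3.26 to -1.45), Thbs4 (-2.53 to -1.15) and Prkcq (-2.02 to -1.28). The interval of Ano1, -2.11 to -0.93, overlapped that of Kitl. Differences between genes other than Kit and Kitl were not tested.

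The 6 genes varied together over the 7 arrays, to a large part because the groups differ. Pearson's r of Kit with Ano1, Thbs4, Prkcq and Kitl was 0.98, 0.95, 0.93 and 0.83, and with Etv1 -0.95, as a description over 7 arrays that share their groups. Within the YFP-positive group the members parted. The mean of arrays 3 and 4 exceeded that of arrays 1 and 2 by 1.13 for Kit, 0.83 for Thbs4 and 0.78 for Ano1, but by 0.09 for Kitl and -0.01 for Prkcq, and by -0.25 for Etv1 (log2). The same difference was 1.049 for the mean of the smooth muscle list, 0.73 for a list of PDGFRA-positive fibroblast-like cells, 0.90 for intestinal epithelium, 0.80 for myeloid cells, 0.585 for mesothelium, 0.19 for mast cells and 0.23 for T and innate lymphoid cells. It was -0.47 for neurons and -0.39 for glia. The part of these other cells in the levels of the members was not tested.

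Within the YFP-negative group the members parted too. Kit and Prkcq were highest on array 3 (9.19 and 6.74) and lowest on array 1 (8.53 and 6.30), whereas Thbs4, Ano1 and Kitl were lowest on array 3. The mast cell list (mean log2 level 6.06, 6.27 and 6.63 on arrays 1 to 3) and the T and innate lymphoid list (6.82, 7.28 and 7.82) were also highest on array 3 and lowest on array 1. The intestinal epithelium list (8.36, 8.40 and 8.41) had the same order within a narrow range. The blood progenitor list (6.42, 6.30 and 6.81) was lowest on array 2, and the myeloid list (9.44, 9.69 and 9.61) was highest there. The smooth muscle list (9.70, 9.65 and 9.25) and the fibroblast-like list (9.50, 9.58 and 8.997) were lowest on array 3. With 3 arrays no test was made of these orders.

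**Figure D3:**
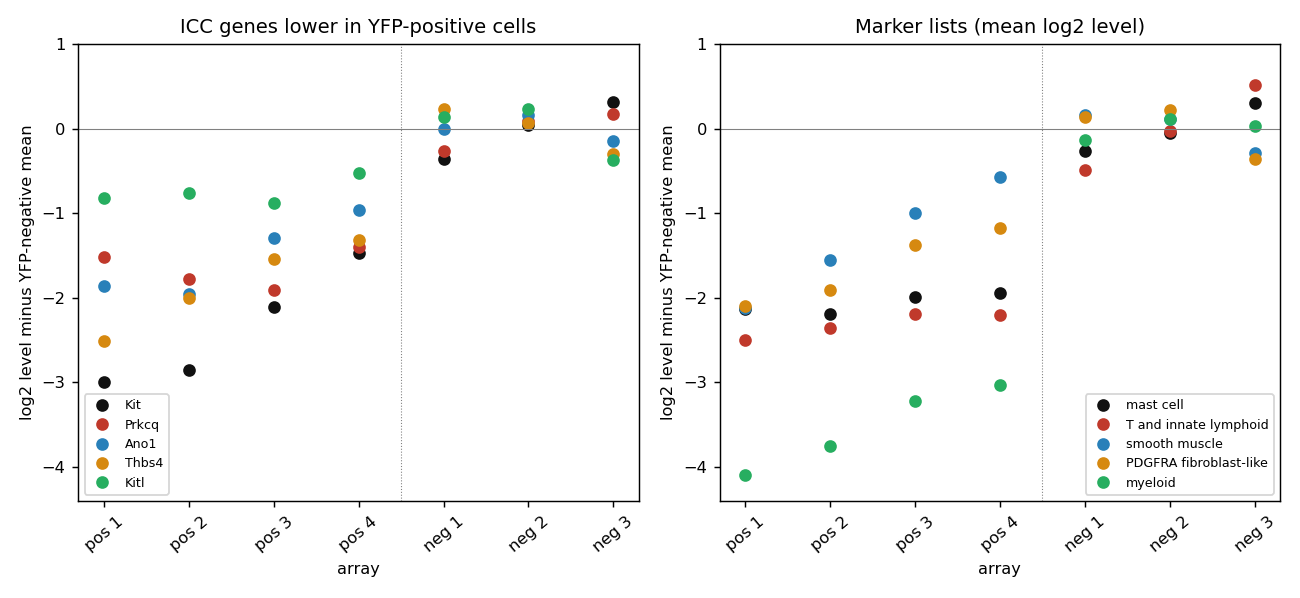
Log2 level on each array minus the mean of the 3 YFP-negative arrays, for the 5 genes lower in YFP-positive cells (left) and for the mean of 5 marker lists (right). YFP-positive arrays 3 and 4 are nearer to 0 than arrays 1 and 2 for Kit, Ano1, Thbs4 and all 5 marker lists. On YFP-negative array 3 Kit and Prkcq lie above 0 while Thbs4, Ano1 and Kitl lie below.

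Most markers of mast cells, which also make Kit, differed in the same direction as Kit. Beside the counts of this and the following lists stand the shares of all genes, 9.11% lower and 8.39% higher. Of 12 mast cell markers 9 were lower in the YFP-positive group and 0 higher, led by the protease gene Mcpt2 (-4.61 ± 0.41), the proteoglycan gene Srgn (-3.87 ± 0.25), which is common to blood cells, the carboxypeptidase gene Cpa3 (-3.65 ± 0.19) and Mcpt1 (-3.23 ± 0.37; log2 fold change ± SE). The summed linear level of the 12 was 253 to 329 on the YFP-positive and 1583 to 2485 on the YFP-negative arrays. The 3 markers that did not pass were low on all 7 arrays: the genes of the immunoglobulin E receptor, Fcer1a (2.70 to 2.96 on the YFP-positive and 2.96 to 3.79 on the YFP-negative arrays) and Ms4a2 (3.34 to 3.85 and 3.72 to 4.16), and the tryptase gene Tpsab1 (3.22 to 3.59 and 3.44 to 4.17). Mcpt1 and Mcpt2 were as low on the YFP-positive arrays, at 3.03 to 3.34 and 2.94 to 3.31, so that their differences may be limited by background there. Their part in the level of Kit was not tested.

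T and innate lymphoid markers, which share Prkcq with ICC, were lower in 7 of 8 cases and higher in 0, among them the cytokine receptor genes Il7r (-4.01 ± 0.32) and Il2rb (-3.04 ± 0.26) and the leukocyte phosphatase gene Ptprc (-3.85 ± 0.42). Their summed linear level was 333 to 389 on the YFP-positive and 1485 to 2911 on the YFP-negative arrays, and 4 rather than 7 were lower without YFP-positive arrays 3 and 4. Of 7 blood progenitor markers 2 were lower, Spi1 (-3.05 ± 0.32) and Cd34 (-2.25 ± 0.25), with a summed level of 299.5 to 383 against 949 to 1126. Their part in the levels of Prkcq and Kit was not tested.

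Melanocytes are Kit-positive cells of the neural crest, and their markers showed no difference that passed. All 8 had log2 levels of 5.34 or less on every array, with Dct, an enzyme of melanin synthesis, at 3.15 to 3.36, and the summed level was 142 to 160 on the YFP-positive and 141 to 150 on the YFP-negative arrays.

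Of the neighbours of ICC in the gut wall, markers of fibroblast-like cells and of smooth muscle were mostly lower in YFP-positive cells, and those of epithelium, endothelium and mesothelium mostly did not pass. Of 10 smooth muscle markers 6 were lower and 0 higher, at a median of -1.33 (log2 fold change) and a summed level of 3108 to 9556 against 11020 to 15230. That count was 0 when YFP-positive array 2 or either of YFP-negative arrays 1 and 2 was left out, and 3 without YFP-positive array 1 or 3. Of 8 markers of fibroblast-like cells 7 were lower and 0 higher, with a median of -1.75 and a summed level of 2053 to 3784 against 6594 to 11010; among them Pdgfra, the receptor gene that names these cells, stood at -2.18 ± 0.36. Of 11 intestinal epithelium markers 0 passed in either direction (3 were lower without YFP-positive arrays 3 and 4), and their summed level was 4917 to 9444 against 5764 to 7688. Of 7 endothelial markers 1 was higher and 2 were lower (1 when YFP-negative array 3, any 1 of YFP-positive arrays 1 to 3, or YFP-positive arrays 3 and 4 were left out), and of 6 mesothelial markers 1 was lower. The mesothelial count was 0 when any 1 of YFP-positive arrays 1, 2 and 4 or of YFP-negative arrays 1 and 2, or YFP-positive arrays 3 and 4 together, were left out, and 2 without YFP-negative array 3. The part of these cells in the levels of the members was not tested.

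Other genes linked to ICC went both ways. Of 28 measured genes of pacemaking, nitric oxide signalling, muscarinic and peptide receptors and ICC precursors, 10 were lower and 5 higher. Of all genes 9.11% were lower and 8.39% higher. The median over the list was -0.32 beside 0.01 over all genes. The largest decreases were those of Cd34 (-2.25 ± 0.25), a surface antigen of ICC precursors and also of blood progenitors, the adhesion receptor gene Cd44 (-2.05 ± 0.22), the soluble guanylate cyclase subunit gene Gucy1b1 (-1.40 ± 0.24) and Mrvi1 (-1.33 ± 0.30), a substrate of the cGMP-dependent kinase (log2 fold change ± SE). The lower genes numbered 6 without YFP-negative array 2. The call of Mrvi1 was lost without YFP-positive array 2 or any 1 YFP-negative array, with a limma adjusted p of up to 0.0912.

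The higher genes of that list were led by Hand2 (1.97 ± 0.14), a transcription factor of enteric neurons, the serotonin receptor gene Htr2b (1.64 ± 0.15), the insulin-like growth factor receptor gene Igf1r (0.75 ± 0.14) and the T-type calcium channel gene Cacna1h (0.74 ± 0.12). Htr2b had log2 levels of 7.35, 7.36, 7.26 and 6.80 on the YFP-positive and 5.47, 5.73 and 5.48 on the YFP-negative arrays. The higher genes numbered 3 without YFP-positive arrays 3 and 4, where the calls of Igf1r (limma adjusted p = 0.0984) and of the lower gene Gucy1b1 (0.0600) were lost. The gap junction gene Gja1 (0.26 ± 0.09) and the chloride transporter gene Slc12a2 (-0.37 ± 0.24), chosen after their values were seen, did not pass.

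Genes of Kit signalling went both ways. Of 37 measured adaptors, kinases, phosphatases, feedback inhibitors and ligand-releasing proteases, 6 were lower, 4 higher and 27 not called, where 9.11% of all genes were lower and 8.39% higher, and the median over the list was -0.15. The lower genes were led by the lipid phosphatase gene Inpp5d (-2.93 ± 0.22), the protease gene Mmp9 (-2.83 ± 0.22), the tyrosine phosphatase gene Ptpn6 (-1.67 ± 0.17) and the PI3-kinase delta gene Pik3cd (-1.08 ± 0.23), all of which are known for their levels in blood cells. Inpp5d read 4.53 to 5.34 on the YFP-positive and 7.49 to 8.08 on the YFP-negative arrays, and Ptpn6 5.67 to 6.09 and 7.21 to 7.84. The mean log2 level of the myeloid list was also lower in YFP-positive cells, at 5.48 to 6.55 against 9.44 to 9.69. So were those of the mast cell list (4.13 to 4.38 against 6.06 to 6.63) and the T and innate lymphoid list (4.81 to 5.11 against 6.82 to 7.82). Of the YFP-negative arrays, Inpp5d was highest on array 3 and the myeloid list on array 2. The part of these cells was not tested. The call of Pik3cd was lost when any of YFP-positive arrays 2 and 4 and YFP-negative arrays 2 and 3, or YFP-positive arrays 3 and 4 together, were left out, with a limma adjusted p of up to 0.128.

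The 4 higher genes of that list were the Src-family kinase gene Fyn (1.11 ± 0.19), the adaptor gene Gab1 (0.98 ± 0.12), the suppressor of cytokine signalling gene Socs6 (0.72 ± 0.11) and the Ras activator gene Sos1 (0.43 ± 0.07). With the mean of all its probe sets, Socs6 stood at 0.35 and kept its call (limma adjusted p = 0.0406). The adaptor gene Grb2 (0.10 ± 0.06), the phosphatase gene Ptpn11 (0.01 ± 0.06) and Adam17 (-0.21 ± 0.08), which encodes a protease that releases Kit ligand, did not pass and were chosen after their values were seen. With array weights, 10 genes of the list were lower and 7 higher.

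**Figure D4:**
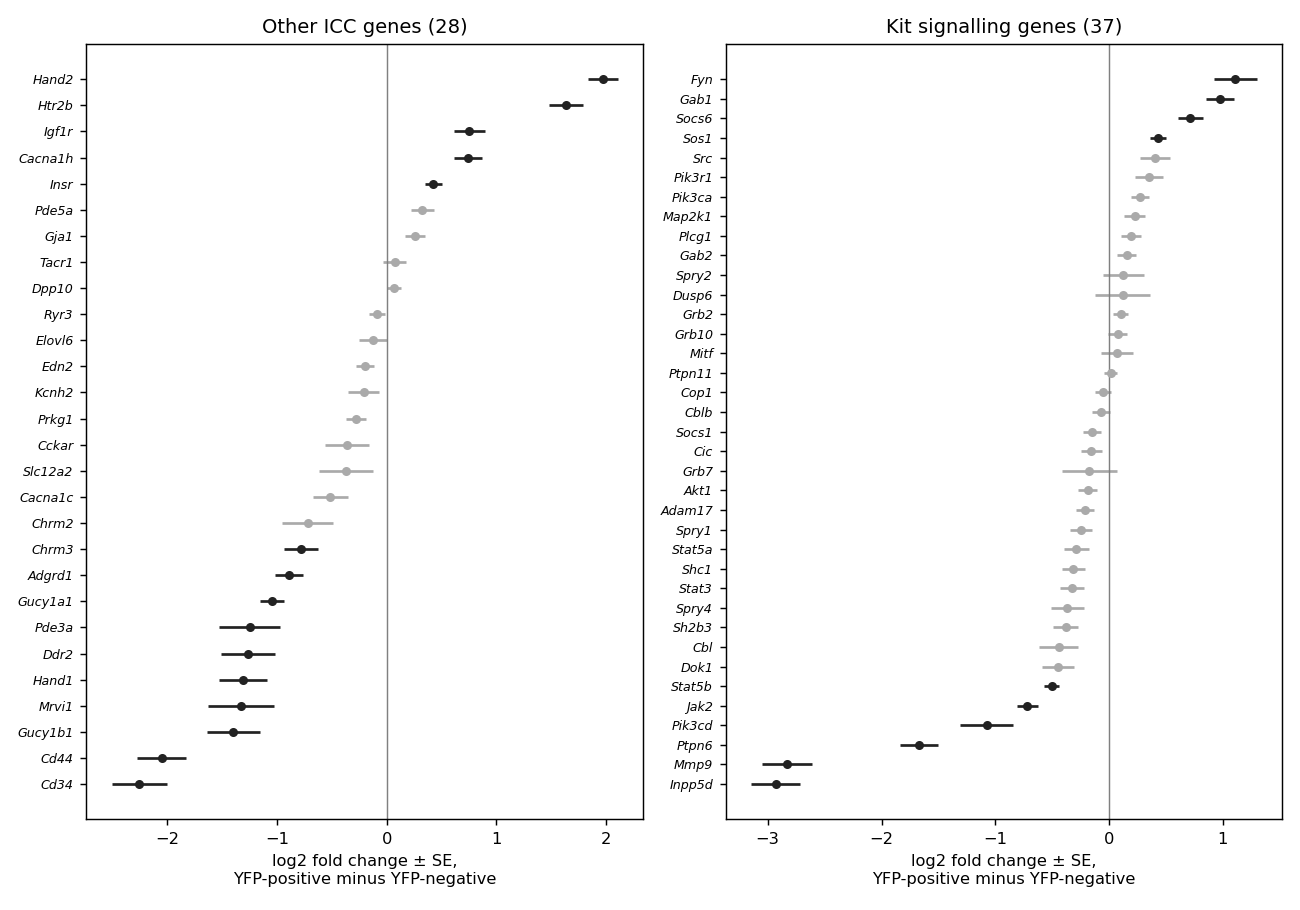
Log2 fold change ± SE, YFP-positive minus YFP-negative, of 28 other genes linked to ICC (left) and 37 genes of Kit signalling (right), with genes past a limma adjusted p of 0.05 in black and the others in grey. The left list spans from Cd34 at -2.25 to Hand2 at 1.97, and the right list from Inpp5d at -2.93 to Fyn at 1.11.

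The genes whose pattern over the 7 arrays was most like that of each member were sought among 9736 named genes with a mean level at or above the median. Closest to Kit were Dock9 (Pearson's r = 0.998), Elf4 (0.997), Atp2b1 (0.996), Erap1 (0.995) and Rin3 (0.994), with log2 fold changes of -1.15, -1.78, -0.73, -1.19 and -1.34. Closest to Kitl were Ntn1 (0.993), Tbxa2r (0.992) and Mmp14 (0.988). For Ano1 they were B4galt1 (0.997), Col6a3 (0.996) and Igfbp5 (0.996), and for Thbs4 Sntg2 (0.998), Osr1 (0.998) and Col6a2 (0.997). For Prkcq they were Lyl1 (0.994), Arhgap4 (0.994) and Ifi203 (0.992), and for Etv1 Zc3h12c (0.996), Slitrk2 (0.995) and Strbp (0.995). With 7 arrays in 2 groups such values describe these arrays only.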

How the data were processed

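Per the submitters' processing notes, the authors ran RMA in Affymetrix Expression Console, and the deposited table holds 1 log2 value per probe set and array of a mouse gene array. RMA corrects background, quantile-normalizes the arrays and summarises probes. Program versions were not given in the sources used here. Per the labels' protocols, RNA from sorted cells was amplified from very small amounts, which can compress differences. Of 35556 probe sets, 21789 had 1 gene symbol. The probe set with the highest mean over the 7 arrays stood for each gene, which gave 19938 genes. List genes outside these are not analysed here.

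The comparison used lmFit and eBayes (limma 3.58.1, R 4.3.3), with the group as the only term and p-values adjusted over all genes by Benjamini-Hochberg at a threshold of 0.05. The fit was tested on simulated data. Python 3.11.15, pandas 2.3.3, numpy 2.4.6, scipy 1.17.1 and matplotlib 3.10.9 were used. The members and all lists were chosen with earlier results of these data known. Lists are described by counts, medians, mean log2 levels and summed levels after undoing the log. Named genes are all members, up to 4 genes per direction of the ICC and signalling lists with the largest change that passed, and the genes with the highest Pearson's r to each member; others are said to be chosen after their values were seen, except that marker genes are named as examples. Promoter sequences come from RefSeq, GRCm38.p6, which held all 6 members. Alternatives were trend and robust eBayes, median centring, quantile normalization, leaving out the genes of lowest mean level, the mean of all probe sets, testing every probe set, array weights, the replicate block, each array left out, and YFP-positive arrays 3 and 4 left out.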

Additional observations from a re-analysis of the deposited data

How the results depend on the processing

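Kit, Ano1, Thbs4, Prkcq and Etv1 kept their direction and their call under all 16 alternatives to the fit, with log2 fold changes of -2.92 to -2.14 for Kit, -1.91 to -1.37 for Ano1, -2.26 to -1.62 for Thbs4, -1.78 to -1.56 for Prkcq and 0.75 to 0.996 for Etv1. In these alternatives Etv1 was read from its probe set with the highest mean, or from the mean of its probe sets. The second probe set of Etv1 alone, at 0.63 ± 0.18 (SE), did not pass when every probe set was tested (limma adjusted p = 0.0550). Kitl kept its direction under all 16 and its call under 10. With 1 array left out its log2 fold change was -0.93 to -0.63, and without YFP-positive arrays 3 and 4 it was -0.79 (limma adjusted p = 0.0798). The members called lower were therefore 4 or 5. The change of Kit minus Kitl was -1.85 to -1.27 with 1 array left out and -2.13 without YFP-positive arrays 3 and 4.

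Over all genes 1817 were lower, and 1166 (without YFP-negative array 2) to 1890 with 1 array left out. The other ICC genes called lower were 6 to 11 with 1 array left out, the 6 without YFP-negative array 2, and those called higher 3 without YFP-positive arrays 3 and 4. Array weights called 10 Kit signalling genes lower and 7 higher. Causes were not tested. Of 79 further genes of the lists that passed, 23 lost their call under at least 1 alternative and 0 changed sign. Same-numbered arrays of the groups did not deviate together (r of their deviations from the group means 0.01, -0.09 and 0.04 over genes). These values show no shared effect of the replicate number, but they cannot tell whether same-numbered samples had a common origin. With a replicate block 1872 genes were lower and 1715 higher, Kit stood at -2.36, and no member's call changed.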

Other observations

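Relatives of the members, chosen after the members' values were known and therefore given without a test, did not all follow them. Of the Ano family, Ano2 had the largest difference after Ano1 and in the other direction, with a log2 fold change of 0.65 ± 0.20 (SE), and the lipid scramblase gene Ano6 was near level at 0.15 ± 0.08. The thrombospondin genes Thbs1 (-2.62 ± 0.35) and Thbs2 (-2.05 ± 0.32) had larger differences than Thbs4, and Thbs3 was at -0.72 ± 0.18. Comp, of the same family, was at 0.02 ± 0.05 with overlapping groups. Etv4 and Etv5, the closest relatives of Etv1, stood at 0.38 ± 0.15 and 0.08 ± 0.16, with overlapping groups.

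Protein kinase C genes had differences of either sign. Prkch (-2.03 ± 0.12) and Prkcd (-1.49 ± 0.11) stood on the side of Prkcq, and Prkca (0.78 ± 0.14), Prkcb (0.51 ± 0.18) and Prkce (0.74 ± 0.09) on the other. Receptor genes of the same class as Kit had negative log2 fold changes, with Pdgfrb at -1.67 ± 0.24, Flt3 at -1.47 ± 0.15 and Csf1r at -3.28 ± 0.26. The ligand genes Csf1 (-0.74 ± 0.11), of Csf1r, and Flt3l (-0.77 ± 0.15), of Flt3, had differences close to that of Kitl. Il34, a further ligand gene of Csf1r, was at -0.22 ± 0.13 with overlapping groups. Ligand genes of Pdgfrb were not among the relatives looked at.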
